A study of Mus musculus with 79 samples.

Results

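The comparison of PER2 muscle knockout with control muscle at zeitgeber time 20 (ZT20, 20 h after lights on) covered 8 mouse RNA-seq libraries of the 79 in the series. It comprised 4 libraries of the genotype labelled PER2 MKO, a muscle-specific knockout, and 4 labelled PER2 CTRL, whose genotype is given as WT. Tissue is labelled muscle. The sources used here do not name the muscle, the Cre driver, the deleted exons or the age of the mice. By the study's design text each library came from a separate mouse. All 12952 genes of the authors' deposited ZT20 table were used, and ZT20 was set against the same genotype comparison at ZT0, ZT4, ZT8, ZT12 and ZT16, each with 4 PER2 MKO and 3 PER2 CTRL libraries. The design asks what loss of PER2 does in muscle through the day, and this comparison asks what is particular to ZT20.

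PER2 is a core repressor of the mammalian circadian clock. With CRY proteins it represses the activators CLOCK and BMAL1 (the product of Arntl), which bind E-box sequences and drive Per, Cry, Dbp and Nr1d1. Nr1d1 encodes REV-ERBα, a heme-binding nuclear receptor that represses Arntl and Nfil3 through ROR response elements, where RORα, the product of Rora, activates. In skeletal muscle REV-ERBα is known for its part in oxidative capacity and lipid use.

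The values are the authors' deposited log2 fold changes. No header or label states the direction of these ratios, so values are given as positive or negative and never as higher or lower in the knockout. The ± after a value is an error derived from the deposited log2 fold change and its likelihood ratio, and a gene is called when the deposited adjusted p is under 0.05. Values of single libraries were not analysed here, so depth per library is unknown. The median derived error was 0.125 at ZT20, and 0.135 to 0.137 at the other times, which have 1 control library fewer. The median likelihood ratio over all genes was 1.00 times that of a chi-square distribution at ZT20, against 3.78 at ZT4 and 2.35 at ZT12. Across 11739 genes of at least 1 CPM (counts normalised to library size), the rank correlation of the log2 fold change with transcript length was 0.09 at ZT20, 0.52 at ZT4 and 0.44 at ZT12, a description over genes that share libraries.

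Per2, the targeted gene, had a deposited log2 fold change of 0.31 ± 0.21 at ZT20 (deposited adjusted p = 0.798). In the authors' deposited tables its values were -0.16 at ZT0 and, in the order of the later times up to ZT16, 0.46, 0.51, 0.70 and 0.38. Per2 was called at ZT12 alone. Because the deleted exons are not given and a gene-level value covers all exons, Per2 neither checks the labels nor sets the direction of the tables.

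Nr1d1 was the single gene whose ZT20 value differed from the mean of the other 5 times past the threshold. In the authors' deposited tables the log2 fold change of Nr1d1 was 0.20 at ZT0, peaked at 0.50 at ZT4 and was 0.19 at ZT8. It was -0.05 at ZT12, fell below 0 by more than its error at ZT16 with -0.60, and was -0.91 at ZT20, with derived errors of 0.17 to 0.18. The lowest value was thus that of ZT20, at the opposite sign to the first 3 times. Nr1d1 was called at ZT20 (deposited adjusted p = 2.83e-05) and, with the opposite sign, at ZT4 (deposited adjusted p = 0.0440). The median likelihood ratio at ZT4 was 3.78 times that of a chi-square distribution, and the ZT4 call was not tested with that allowed for. The ZT20 value of Nr1d1 lay 0.96 ± 0.19 below the mean of the other 5 times (difference -0.96, two-sided normal test on the derived errors, adjusted p = 0.00425 over all genes). In this test 1 of 12952 genes passed (0.00772%). An unadjusted p under 0.05 was seen for 333 genes, below the 0.05 share of all genes expected if none differed. The derived errors were wider than the scatter of most genes, so this count does not show that no other gene differed. The call rests on ZT4: without ZT4 the difference of Nr1d1 was -0.85 with an adjusted p of 0.140, and against the neighbouring ZT16 and ZT0 alone it was -0.71 with an adjusted p near 1. With the spread between the other 5 times as the error (limma), Nr1d1 did not pass either. With derived errors widened where likelihood ratios were inflated, the normal test gave Nr1d1 an adjusted p of 0.0328. Nr1d1 lies on the opposite strand to Thra, whose 3' end it overlaps. The library kit was stranded, per the labels, but whether counting used strand is not given, and Thra itself was at -0.02 ± 0.11 at ZT20.

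Promoter windows of the 2 clock genes called at ZT20, Nr1d1 and Nfil3, are shown because these are the genes on which the clock result turns. The windows are RefSeq sequences on GRCm38.p6, from 250 bases before to 50 bases after the annotated start. Nr1d1 is chr11:98775328-98775627 and Nfil3 is chr13:52980990-52981289, both on the minus strand. Capitals mark matches on either strand to the E-box CACGTG, the related CACGTT, the ROR element half-site AGGTCA, the D-box TTANNTAA or the GC box GGGCGG, and GC box matches overlap one another.
Nr1d1: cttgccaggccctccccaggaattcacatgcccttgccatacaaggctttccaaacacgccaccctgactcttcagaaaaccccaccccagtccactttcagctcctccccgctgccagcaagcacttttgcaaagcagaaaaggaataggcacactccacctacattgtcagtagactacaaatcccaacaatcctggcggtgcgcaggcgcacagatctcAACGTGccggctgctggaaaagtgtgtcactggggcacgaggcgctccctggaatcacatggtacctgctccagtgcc
Nfil3: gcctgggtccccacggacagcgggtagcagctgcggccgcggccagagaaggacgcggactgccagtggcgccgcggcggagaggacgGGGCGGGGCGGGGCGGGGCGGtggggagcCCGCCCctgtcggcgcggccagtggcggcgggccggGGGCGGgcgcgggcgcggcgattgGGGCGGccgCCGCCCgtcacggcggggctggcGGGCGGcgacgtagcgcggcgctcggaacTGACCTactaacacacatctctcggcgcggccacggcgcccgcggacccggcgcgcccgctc
The Nr1d1 window held 1 match, to CACGTT on the reverse strand, beginning 28 bases before the start. The Nfil3 window held 1 match to AGGTCA on the reverse strand, beginning 12 bases before the start, and 9 matches to the GC box. Among all 32851 windows of this length, 4.68% held CACGTT, 16.3% AGGTCA, 7.15% CACGTG, 6.00% TTANNTAA and 35.7% GGGCGG. Among the 9417 genes tested here that have a window, the shares were 6.17%, 15.1%, 11.8%, 4.30% and 68.2% in the same order. These matches describe letters only.

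**Figure D1:**
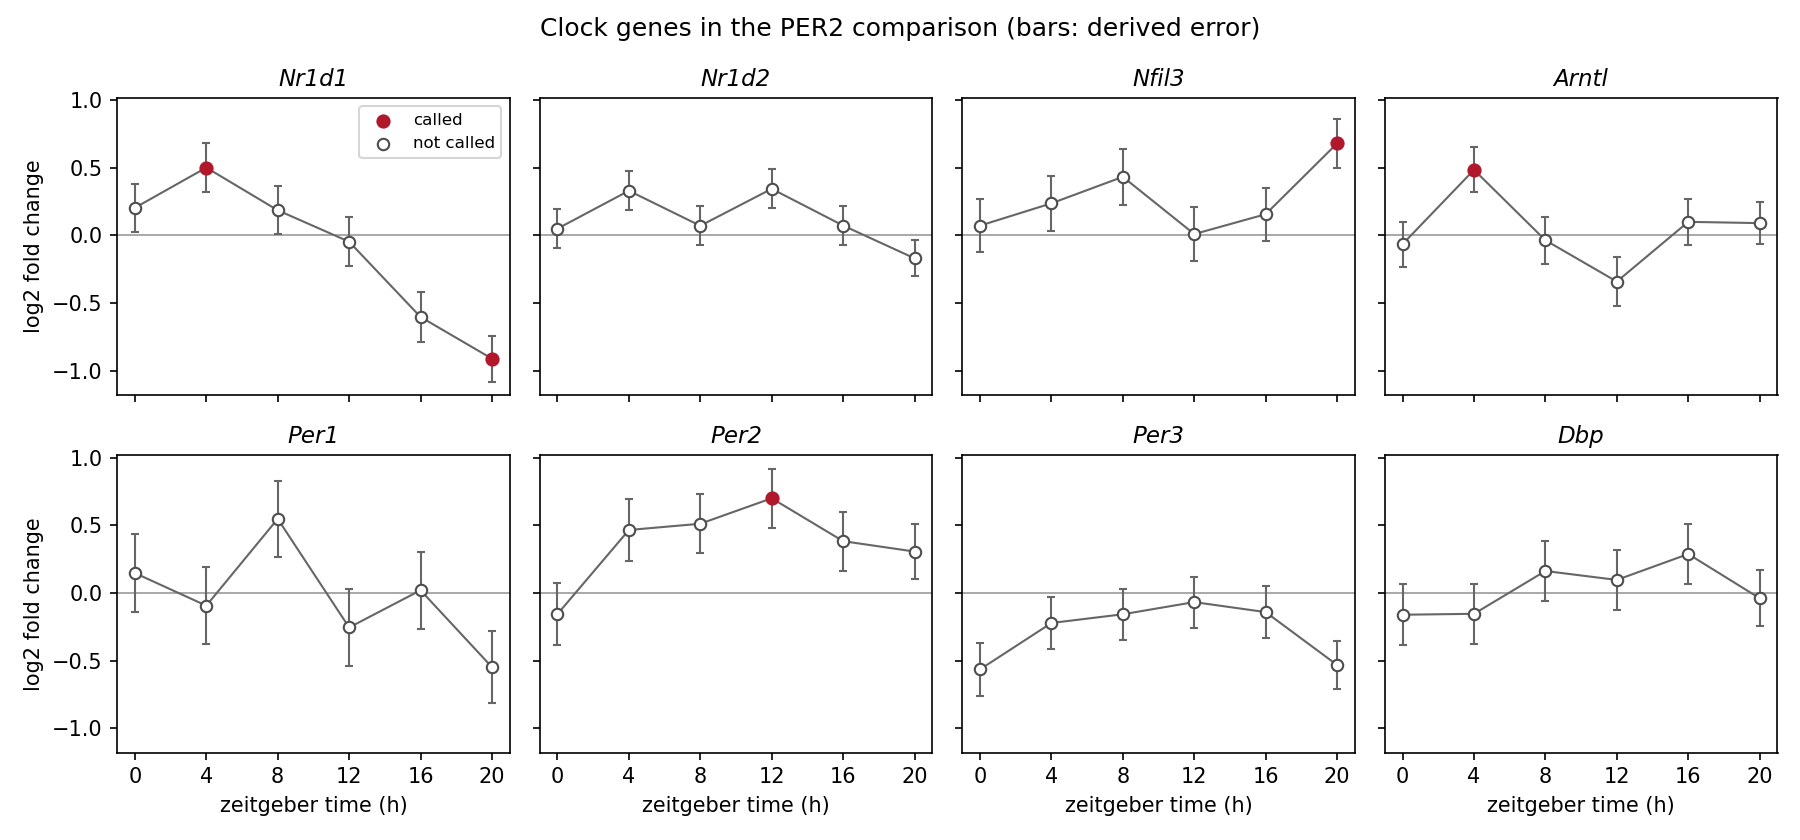
Deposited log2 fold change (vertical axis) by zeitgeber time in hours (horizontal axis) for 8 clock genes in the PER2 comparison. Bars are the derived error and filled points have a deposited adjusted p under 0.05. Nr1d1 runs from 0.50 at ZT4 to -0.91 at ZT20, and Arntl is at 0.49 at ZT4, -0.34 at ZT12 and 0.09 at ZT20.

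Of 27 clock genes listed, 24 were measured and 2 were called at ZT20, beside 1.52% of all genes. Nfil3, a repressor that competes with DBP, TEF and HLF for D-box sequences, was at 0.68 ± 0.18 at ZT20 (deposited adjusted p = 0.0181). In the authors' deposited tables Nfil3 was at 0.07, 0.24, 0.43, 0.01 and 0.16 from ZT0 to ZT16, so ZT20 held its highest value. The difference of Nfil3 from the other 5 times was 0.50 ± 0.20 and did not pass (adjusted p = 1.00 over all genes). The other 22 clock genes were not called and ranged from -0.55 to 0.31.

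Among the other repressors, Per1 was at -0.55 ± 0.26 (deposited adjusted p = 0.509) and Per3 at -0.53 ± 0.18 (deposited adjusted p = 0.125). Nr1d2, which encodes the related receptor REV-ERBβ, was at -0.17 ± 0.13 at ZT20 and at 0.34 at ZT12. Arntl, the gene REV-ERBα represses, was at 0.09 ± 0.15 at ZT20 (deposited adjusted p = 0.999). Like Nr1d1 it was positive and called at ZT4, at 0.49 (deposited adjusted p = 0.0366), and it was at -0.34 at ZT12. Dbp, an output activator, was at -0.04 ± 0.21, and Tef, of the same family, was at -0.18 ± 0.08 (deposited adjusted p = 0.475). Rora was at 0.24 ± 0.11 (deposited adjusted p = 0.401). The median over the 7 measured activators and genes that peak with Arntl was 0.09, and over the 17 measured repressors and output genes -0.02, beside a median of -0.01 over all genes tested.

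Apart from Nr1d1, the genes called at ZT20 had mostly the same sign at the other times. The authors' deposited table called 197 of 12952 genes at ZT20 (1.52%), 117 with a positive value (0.903%) and 80 with a negative value (0.618%). The median size among the called genes was 0.68, and 54 had a size of at least 1. Of the 197, 177 (89.8%) had 1 sign at all 6 times, as did 18.6% of all genes. At ZT0 193 of the 197 had the ZT20 sign, at ZT4 191, at ZT8 189, at ZT12 192 and at ZT16 186. Over all genes the share with the ZT20 sign was 60.7% to 66.5% at these times. Of the 197, 169 were called at 1 or more of the other times. Of these, Nr1d1 alone was called elsewhere with the opposite sign, at ZT4 (deposited adjusted p = 0.0440). By time, 124 of the 197 were also called at ZT0, where 2.70% of all genes were called. The numbers were 132 at ZT4 (12.2% of all genes), 92 at ZT8 (1.78%), 119 at ZT12 (3.34%) and 64 at ZT16 (0.811%). Taken as a share of the other table, the shared calls were 61.0% of the ZT16 calls and 8.32% of the ZT4 calls. The same 6 tables gave 44 genes called at all 6 times, 25 positive and 19 negative. By GENCODE M21 the share called at ZT20 was highest on chromosome 1, at 24 of 722 genes (3.32%). The called genes there include Mcm6, Hsd17b7 and Slc9a2, which are described below. It was 3.04% on the X chromosome and 2.27% on chromosome 9. Of the 16 called genes on chromosome 9, 10 were predicted genes with very large negative values, described below. The part of chromosome position in the shared sign was not tested.

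**Figure D2:**
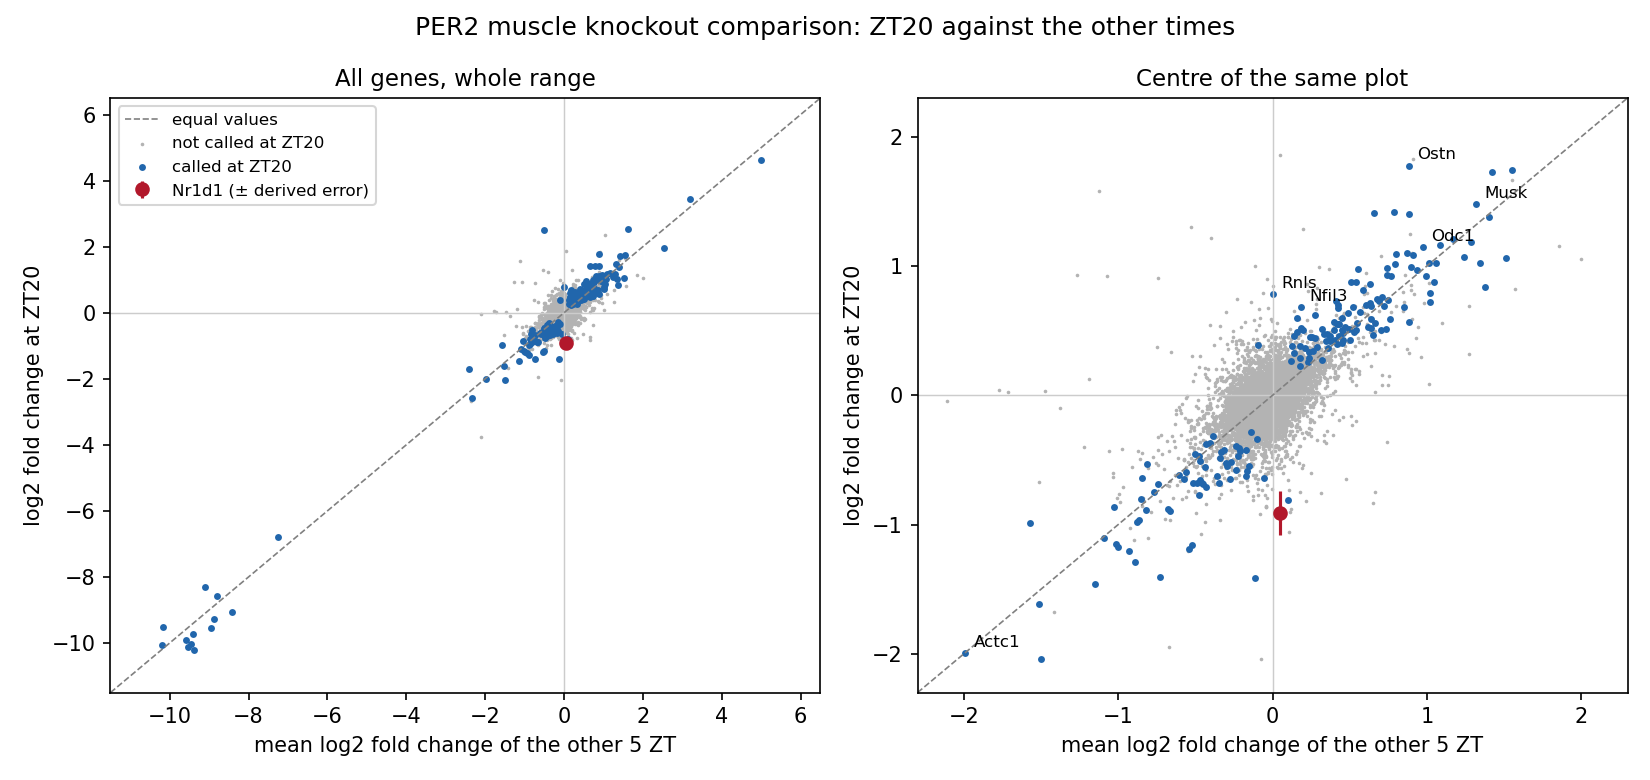
Log2 fold change at ZT20 (vertical axis) against the mean of the other 5 times (horizontal axis) for 12952 genes, over the whole range on the left and near 0 on the right. Blue points are the 197 genes called at ZT20, the red point is Nr1d1 with its derived error, and the dashed line marks equal values. Most called genes lie near the line, with Nr1d1 at -0.91 against a mean near 0.

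Among called genes of at least 1 CPM without a predicted name, the 8 highest positive values were those of Mss51, Ostn, Otog, Npnt, Musk, Dach2, Neto2 and Amy1. Mss51, a muscle-enriched mitochondrial protein linked to myostatin signalling, was at 2.54 ± 0.58 at ZT20 in the authors' deposited table, and at 1.42, 2.26, 1.66, 1.68 and 1.06 from ZT0 to ZT16. Ostn, which encodes the secreted peptide osteocrin (musclin), was at 1.78 ± 0.29 at ZT20 (deposited adjusted p = 2.60e-07) and at 0.71 to 1.10 elsewhere. ZT20 was the highest time for both genes. Both were called at ZT4 and ZT20. Their differences from the other 5 times, 0.93 ± 0.63 for Mss51 and 0.89 ± 0.32 for Ostn, did not pass (adjusted p = 1.00 for each).

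Musk, the receptor kinase that organises the neuromuscular junction, was at 1.48 ± 0.22 at ZT20 (deposited adjusted p = 1.16e-08). It was called at all 6 times, from 1.08 at ZT8 to 1.56 at ZT12 in the authors' deposited tables, so ZT20 lay within the range of the other times. Npnt, an integrin-binding matrix protein, was at 1.73 ± 0.26 at ZT20, with its lowest value of 0.68 at ZT16. Dach2, a transcriptional cofactor involved in the response of muscle to innervation, was at 1.42 ± 0.32 at ZT20 and at 1.27 and 1.45 at ZT0 and ZT4, against 0.30 to 0.59 from ZT8 to ZT16. Neto2, an auxiliary subunit of kainate receptors, was at 1.40 ± 0.32 at ZT20 and at 0.08 at ZT16. Otog, which encodes otogelin, was at 1.74 ± 0.43 at ZT20 and at -0.02 at ZT16, at a mean level of only 1.63 CPM. Amy1, an amylase, was at 1.21 ± 0.16 at ZT20 and was called at all 6 times. For Npnt, Neto2 and Otog the ZT16 value, 4 h earlier, was the lowest of the 6, and the ZT20 value was back among the higher ones. This was not particular to these genes. ZT16 had the fewest calls of the 6 times, 105 genes. Negative genes such as Lrtm1 and Ppp1r1a also had their smallest size at ZT16, while Tmem45b had its largest size there.

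The 8 lowest values by the same rule were those of Cyp4f39, Actc1, Pla2g5, Mcm6, Tmem45b, Kl, Lrtm1 and Tiam1. Cyp4f39, a cytochrome P450 of the fatty acid hydroxylase family, was at -2.04 ± 0.50 at ZT20 in the authors' deposited table, at a mean level of 1.34 CPM. Actc1, the cardiac α-actin expressed in developing muscle, was at -1.99 ± 0.42 (deposited adjusted p = 0.00044) and at -1.26 to -2.40 elsewhere. Pla2g5, a secreted phospholipase A2, was at -1.70 ± 0.33, its smallest size of the 6 times, against -3.25 at ZT4. Mcm6, a subunit of the replicative helicase, was at -1.61 ± 0.27 and was called at all 6 times, at a mean level of 1.27 CPM. Tmem45b was at -1.46 ± 0.19 at ZT20 and at -0.53 at ZT4. Kl, which encodes klotho, was at -1.40 ± 0.36 at ZT20 and was called at no other time, with values of -0.20 to -1.07. The mean level of Kl was 1.33 CPM. Lrtm1 was at -1.29 ± 0.21, and Tiam1, an activator of the GTPase RAC1, at -1.21 ± 0.22 with -0.82 to -1.12 elsewhere. None of these 8 genes differed at ZT20 from the other 5 times past the threshold.

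**Figure D3:**
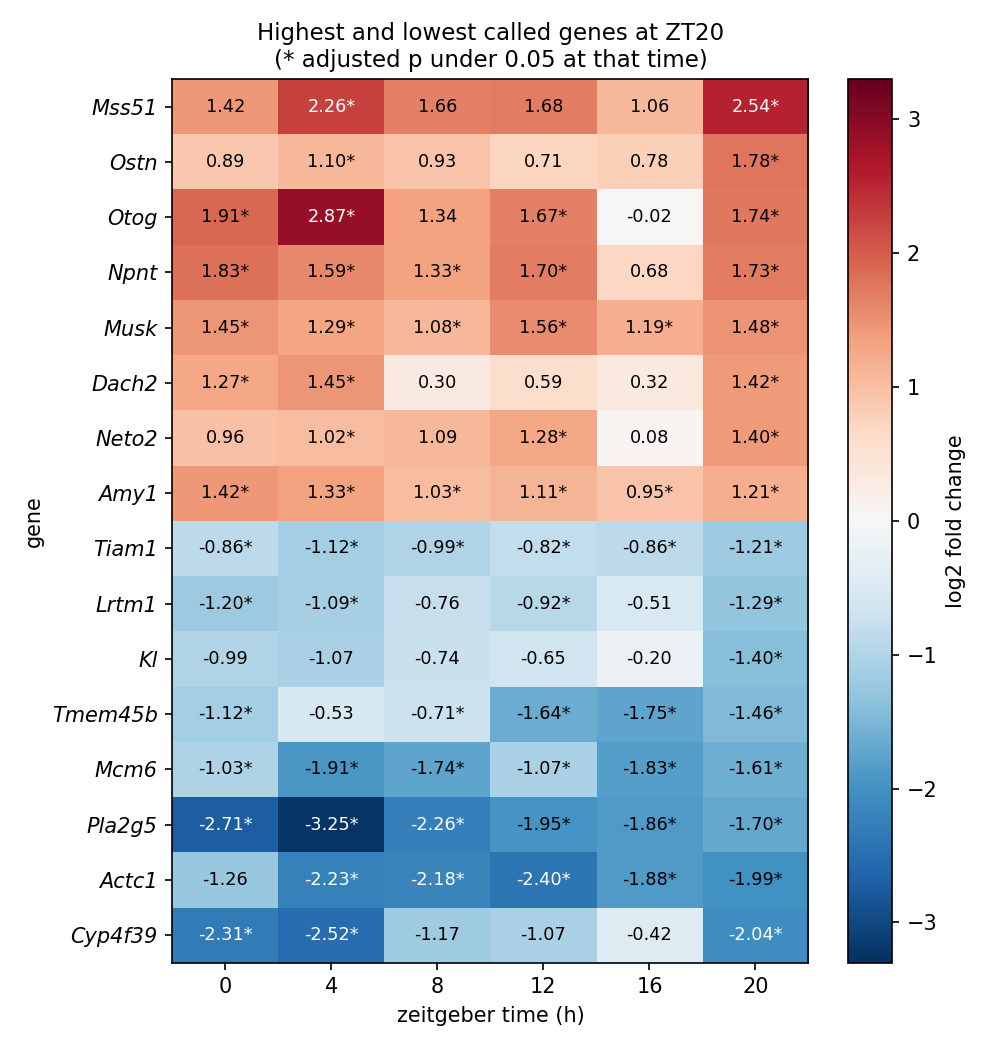
Deposited log2 fold change (colour and printed value) of the 8 highest and 8 lowest called genes at ZT20 among genes of at least 1 CPM with a gene name that is not a predicted one, by zeitgeber time in hours. An asterisk marks a deposited adjusted p under 0.05. Musk and Amy1 carry one at every time, and Kl at ZT20 alone.

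The largest sizes of all belonged to 13 predicted genes, at -6.79 to -10.2 at ZT20 and at -6.59 to -12.2 over the 6 times. All 13 were called at every time. By GENCODE M21, 10 lie on chromosome 9, 2 on chromosome 2 and 1 on chromosome 14. In the authors' deposited tables Gm26870 was at -10.2 at ZT20 and -8.46 at ZT12, and Gm10801 at -10.1 at ZT20 and -12.2 at ZT0. Gm10717, Gm10721, Gm10718 and Gm21738 were at -10.1, -10.0, -9.90 and -9.73 at ZT20. These may be families of near-identical copies, so how reads were split among them is uncertain. Their sequences were not compared here. Without the 13, 164 genes called at ZT20 had 1 sign at all 6 times, and 41 had a size of at least 1.

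By pathway, 15 of 38 gene lists had a called member at ZT20. Over the 880 different genes measured in these lists 19 were called (2.16%), beside 1.52% of all genes. Of 12 measured genes of polyamine metabolism, Odc1, the ornithine decarboxylase that opens the pathway, and Smox, the spermine oxidase, were called, both positive. Odc1, in the authors' deposited tables, was at 1.15 ± 0.22 at ZT20 and 0.29 at ZT16, and Smox at 0.88 ± 0.22 at ZT20 and 0.03 at ZT16. ZT16 was the lowest of the 6 times for both, as it was for Npnt, Neto2 and Otog. The polyamine median was 0.13 at ZT20, with the other 10 genes not called.

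Among 21 measured genes of adrenergic and cAMP signalling, Pde7a, a cAMP phosphodiesterase, was positive at 0.72 ± 0.15, and Ppp1r1a, an inhibitor of protein phosphatase 1, was negative at -1.10 ± 0.19, each called in the authors' deposited table. Both had the same sign at all 6 times. Of 19 measured genes of replication and mitosis, Tpx2, a spindle assembly factor, was positive at 1.06 ± 0.26, while Mcm6 was negative. Of 18 measured developmental muscle genes Actc1 alone was called, and of 20 measured neuromuscular junction genes Musk alone. The medians of these last 2 lists were 0.01 and -0.03.

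Several metabolic lists had 1 called member. Pcx, pyruvate carboxylase, was at 0.51 ± 0.12 at ZT20 in the authors' deposited table, and at 0.31 to 0.49 elsewhere. Slc38a4, an amino acid transporter, was at 0.53 ± 0.14 and Hsd17b7, an enzyme of sterol synthesis, at 0.56 ± 0.15. Ppp1r3b, which targets protein phosphatase 1 to glycogen, was at -0.88 ± 0.23, and Gpx3, a secreted glutathione peroxidase, at -0.64 ± 0.15. Igtp, an interferon-induced GTPase, was at -0.62 ± 0.17 and was the 1 called of 30 measured interferon genes, of which 26 had a negative value. The interferon median was -0.23 at ZT20, -0.40 at ZT8, -0.30 at ZT16 and -0.07 at ZT12. The 18 measured antigen presentation genes were all negative with a median of -0.21, and none was called. Their median was -0.48 at ZT4 and -0.05 at ZT0. Of all 12952 genes, 6721 had a negative value at ZT20.

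The large metabolic and translational lists had medians near 0 at ZT20. With 1.52% of all genes called, a count of 0 in lists of this size is near the background. No gene was called among 46 nuclear-encoded respiratory subunits (median -0.01), 64 mitochondrial ribosomal proteins (-0.01), 74 cytosolic ribosomal proteins (-0.02), 23 genes of fatty acid oxidation (-0.04), 18 of the tricarboxylic acid cycle (-0.05) or 23 glycolytic enzymes (0.02). At ZT4 the median of the respiratory subunits was -0.41 and that of the cytosolic ribosomal proteins -0.42, and at ZT12 they were -0.29 and -0.28. The rank correlations with transcript length given above were also largest at ZT4 and ZT12. The 5 measured red blood cell markers had medians of -1.35 at ZT4, with 5 called, and -1.01 at ZT12, with 4 called. The part of either in these medians was not tested. In all, 34 of 38 pathway medians lay within 0.1 of 0 at ZT20, against 29 at ZT0, 17 at ZT4, 24 at ZT8, 21 at ZT12 and 32 at ZT16. The highest pathway median at ZT20 was that of 15 slow fibre genes, at 0.24, and none of them was called. Myh7, the slow myosin heavy chain, was at 0.47 ± 0.32 (deposited adjusted p = 0.808). Angptl4 and Per1 had the smallest p of 20 glucocorticoid-responsive genes, at -0.91 ± 0.43 and -0.55 ± 0.26, and neither was called.

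**Figure D4:**
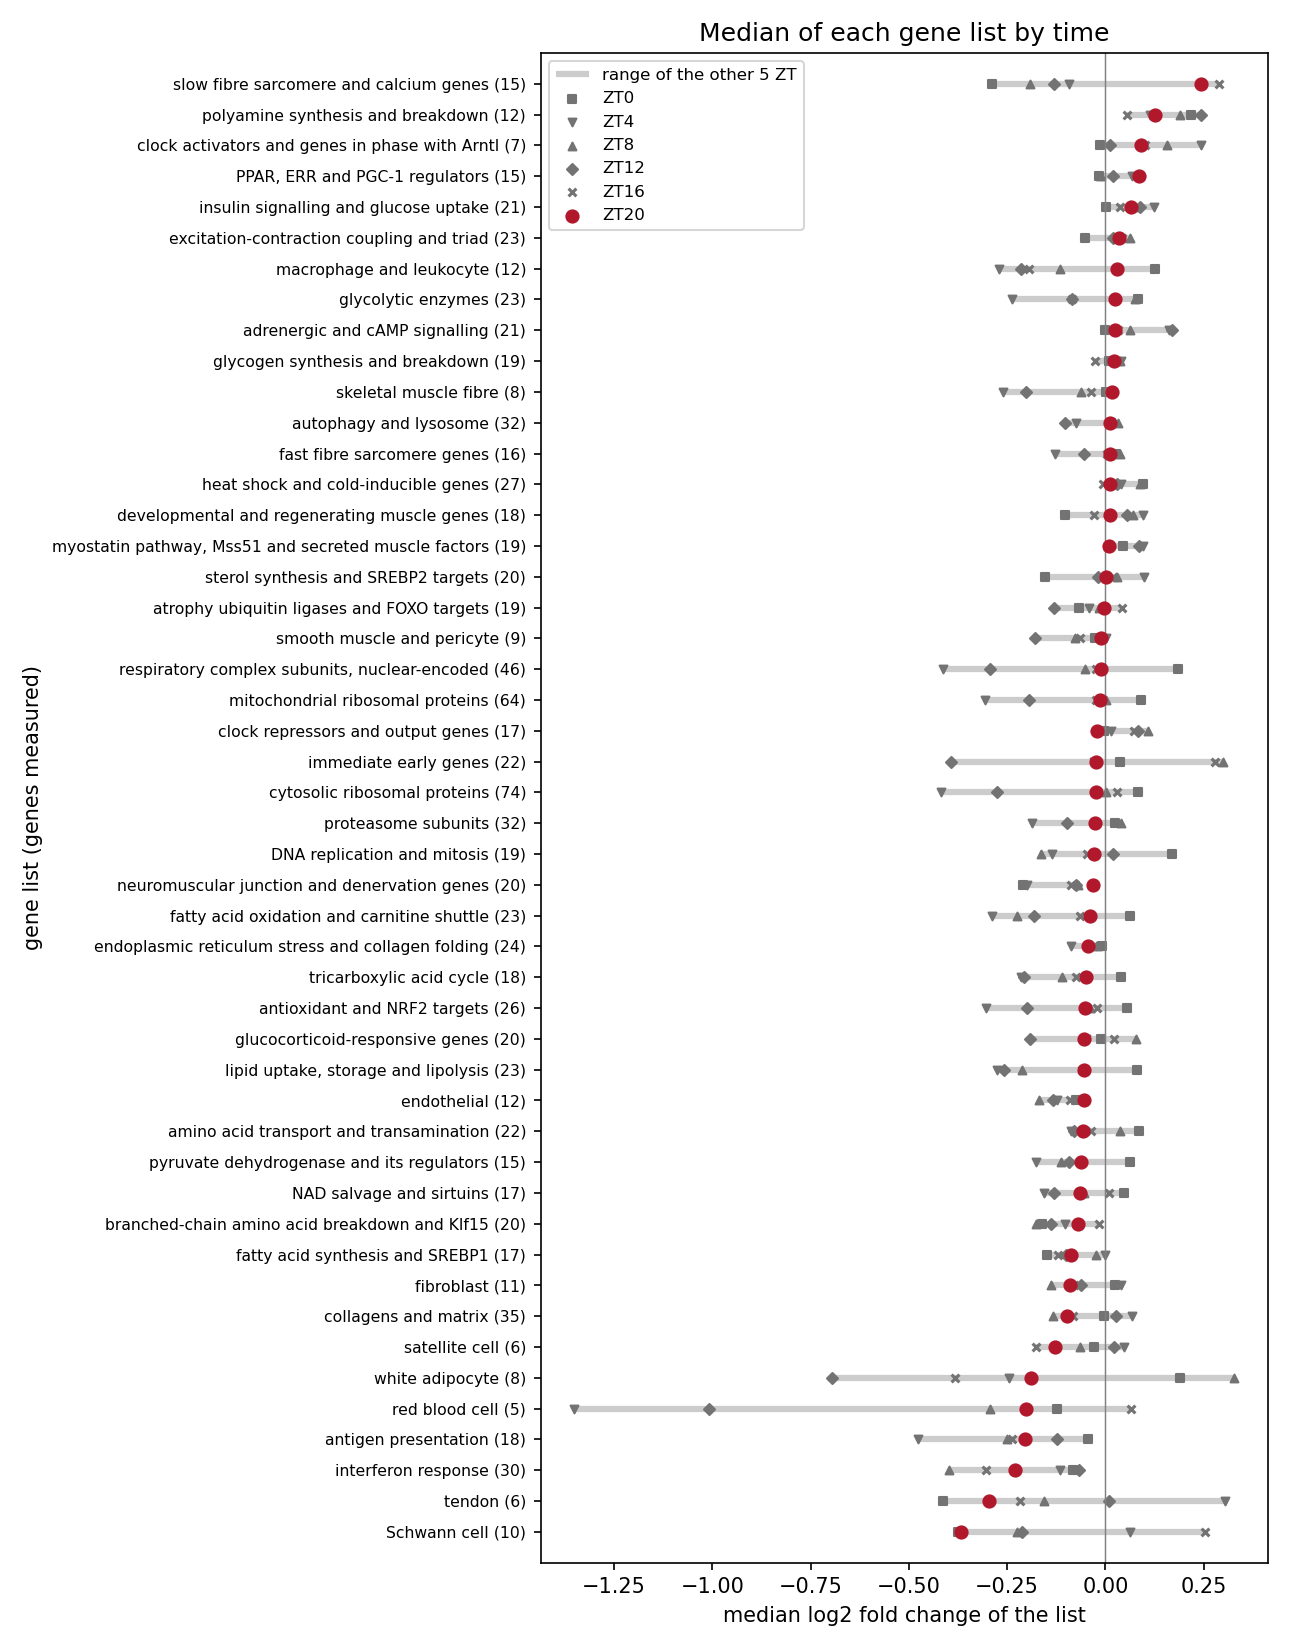
Median deposited log2 fold change (horizontal axis) of each gene list with at least 5 measured genes, with the number measured in brackets. Red points are ZT20, grey symbols the other 5 times, and grey bars their range. The cytosolic ribosomal proteins lie at -0.02 at ZT20 and at -0.42 at ZT4.

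Of 16 lists of markers for the cells that muscle tissue can hold, none had a called gene at ZT20 among 95 measured markers, a count near the background of 1.52%. Cd28, the 1 measured T cell marker of 7, was at 1.05 ± 0.33 at ZT20 (deposited adjusted p = 0.0754) and was called at the other 5 times, at 1.42 to 2.23. Its ZT20 value lay below their mean by a difference of -0.95 ± 0.37, which did not pass (adjusted p = 1.00 over all genes). The 8 skeletal muscle fibre markers had a median of 0.02. The 10 measured Schwann cell markers were all negative, as were 6721 of all 12952 genes. Their median was -0.37 at ZT20 and at ZT0, -0.22 at ZT8, -0.21 at ZT12, 0.06 at ZT4 and 0.25 at ZT16. Mbp, which encodes myelin basic protein, was at -0.56 ± 0.24 in the authors' deposited ZT20 table. The 6 tendon markers (median -0.30), 6 satellite cell markers (-0.13) and 5 measured red blood cell markers (-0.20) were also all negative. The tendon median was -0.41 at ZT0 and 0.30 at ZT4. Pax7, which defines satellite cells, was at -0.46 ± 0.15 (deposited adjusted p = 0.133). The 3 brown adipocyte markers are not in the table. In bulk tissue, fewer cells of a type and less RNA per cell cannot be told apart, and the part of these cells in the calls above was not tested.

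A further 28 genes were called at ZT20 alone, 13 positive and 15 negative. Of them 16 had 1 sign at all 6 times, and none passed the test against the other 5 after adjustment. The derived errors in that test were wider than the scatter of most genes, so not passing does not show equal values. The genes named in this paragraph were chosen after their values were seen. Slc9a2, a sodium-proton exchanger, was at 0.47 ± 0.11 at ZT20 and at 0.25 to 0.39 elsewhere in the authors' deposited tables. Nkd2, an inhibitor of Wnt signalling, was at -0.77 ± 0.15 and at -0.38 to -0.55 elsewhere. Values near 0 at the other times were seen for Rnls, which encodes the flavoenzyme renalase: 0.78 ± 0.18 at ZT20 and -0.14 to 0.13 elsewhere (difference 0.78 ± 0.20, adjusted p = 0.594). Tcf15, a basic helix-loop-helix factor, was at -0.81 ± 0.23 at ZT20 and at -0.15 to 0.31 elsewhere (difference -0.91 ± 0.25, adjusted p = 0.665). Plau, the urokinase plasminogen activator, was at 0.39 ± 0.12 at ZT20 and at -0.24 to 0.11 elsewhere (adjusted p = 0.594). Alb, which encodes albumin, was at 2.51 ± 0.73 at ZT20 and at -2.42 at ZT16, at a mean level of 0.444 CPM.

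Against single times, genes passed the test at ZT4 only. Tested against ZT4 alone, 4 genes passed, and against ZT0, ZT8, ZT12 or ZT16 alone none did. In this normal test on the derived errors, 417, 379, 421 and 331 genes respectively had an unadjusted p under 0.05. Each of these counts is below the 0.05 share of the 12952 genes expected if none differed. The test was conservative in this sense, so these counts do not show that no gene differed. The count against ZT4 alone was 1340, above that share. The 4 genes were Nr1d1, Slc37a1, Tmem9 and Igfbp3, named after their values were seen. All 4 were called at ZT4, and of them only Nr1d1 was called at ZT20. The likelihood ratios at ZT4 were inflated as given above, and these single-time tests did not allow for it. Slc37a1, a sugar phosphate exchanger, was at 0.72 at ZT20 and -1.12 at ZT4 in the authors' deposited tables, at a mean level of 0.758 CPM. Igfbp3, a carrier of insulin-like growth factors, was at -0.48 and 0.45. Tmem9 was at 0.15 and -0.69.

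The genes called in the PER2 table at ZT20 were set beside the RORA knockout at the same time, which has 3 RORA MKO and 3 RORA CTRL libraries of its own and a deposited direction of knockout over control. Of the 197 genes, 163 were found by symbol among the 11328 genes in both tables. Of the 163, 114 were called in the authors' deposited RORA table (69.9%), beside 35.6% of the shared genes, and these were 2.83% of the 4028 shared RORA calls. The sign was opposite for 136 of the 163 (83.4%), beside 61.7% of all shared genes. Of the 114 called in both, 102 had opposite signs, beside 70.7% of all shared RORA calls, with 72 of the 102 positive in the PER2 table and negative in the RORA table. Since the direction of the PER2 table is not stated, opposite deposited signs and opposite responses cannot be told apart.

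Several of the genes described above had large RORA values of the other sign. By the authors' deposited ZT20 tables Ostn was at 1.78 in PER2 and -2.59 in RORA, Mss51 at 2.54 and -2.49, and Npnt at 1.73 and -2.02. Odc1 was at 1.15 and -1.76, Smox at 0.88 and -1.04, and Musk at 1.48 and -0.99. Actc1 was at -1.99 and 1.46, and Ppp1r1a at -1.10 and 1.28. Nfil3 was at 0.68 and -0.37.

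Nr1d1 was among the 12 genes called in both with the same sign, at -0.91 in PER2 and -1.16 in RORA. In the RORA table its level was thus lower in the knockout. The other 11 were Tiam1 (-1.21 and -2.12), Pla2g5 (-1.70 and -1.83), Lrtm1 (-1.29 and -0.54), Cyp4f39 (-2.04 and -0.58), Otog (1.74 and 0.41), Alb, Bcl2, Arrb1, Afap1l1, Smyd2 and Tnfrsf23. Mcm6, Tmem45b, Kl and Rnls were called in the PER2 table and not in the RORA table, where they were at -0.03, -0.03, -0.12 and -0.07. The difference between the tables was not tested, since the direction of 1 of them is unknown.

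**Figure D5:**
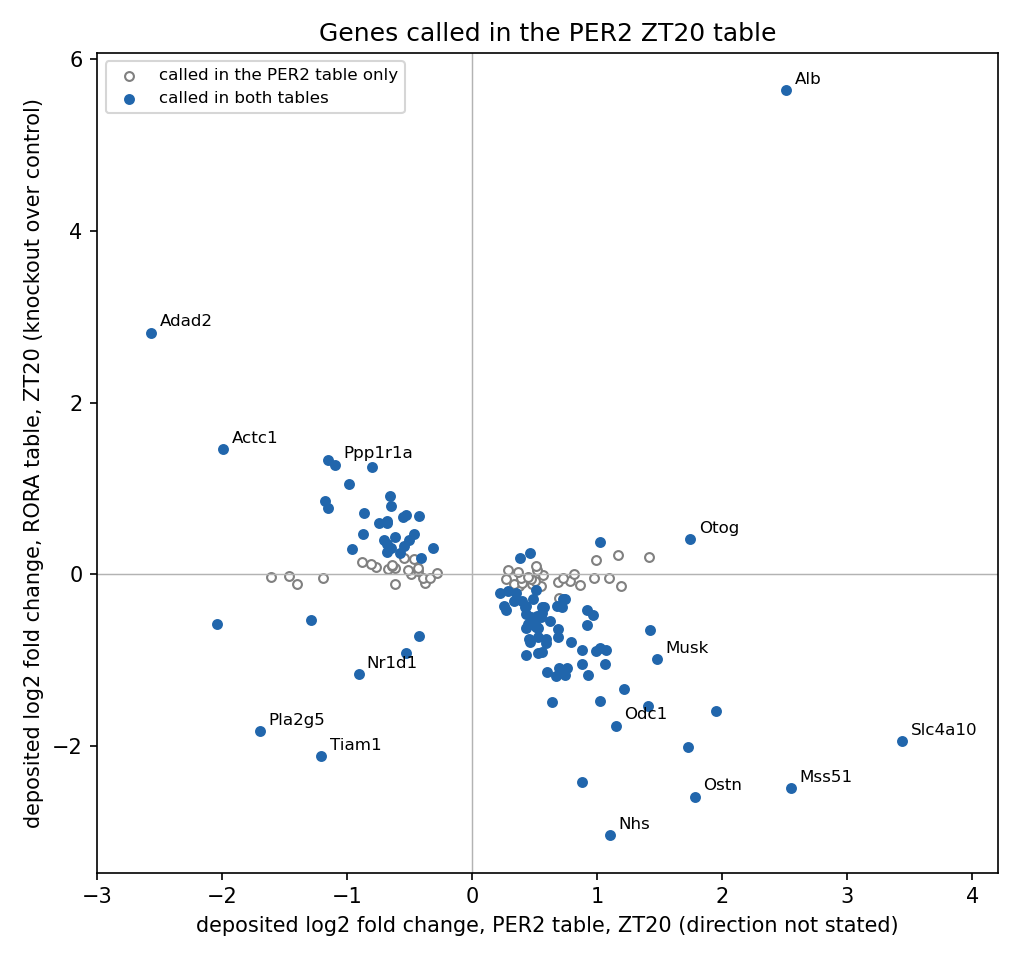
Deposited log2 fold change at ZT20 in the RORA table (vertical axis, knockout over control) against the PER2 table (horizontal axis, direction not stated) for the 163 shared genes called in the PER2 table. Filled points are called in both. Of the 163, 136 lie in the quadrants of opposite sign, and Nr1d1 lies at -0.91 and -1.16.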

How the data were processed

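RNA-seq of mouse muscle was used as the authors' own comparison tables. Per the file headers, the PER2 tables give, per gene, the log2 fold change with a likelihood ratio score, the p-value before and after adjustment, and the log2 CPM averaged over libraries. That average was the same in all 6 tables. The RORA table holds a log2 fold change, its error and p-values deposited by the authors, knockout over control per the labels. Whether these fold changes were shrunken is not stated. Tools listed in the submitters' processing notes, without a role, are STAR, Trimmomatic, DESeq2, MultiQC, bcl2fastq 2.20.0.422 and R 4.1, with builds mm9 and GRCm39. How reads were counted, and with which strand setting, is not given there.

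The error of a PER2 value was derived as the size of the authors' log2 fold change divided by the square root of its deposited score, with 1 degree of freedom. ZT20 minus the plain mean of the other 5 times was tested with a two-sided normal test on these errors and Benjamini-Hochberg adjustment over 12952 genes. The test was run on simulated data drawn with the same derived errors, which cannot show whether those errors are right. Because no counts per library were used, the test for comparison tables took the place of count models. P-values measure the spread between mice as the authors' model gave it.

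The members and lists were chosen with earlier results of these data known. Named genes are Per2, the measured clock genes and the 8 highest and 8 lowest called genes at ZT20 of at least 1 CPM without a predicted name. They also include the same for the difference from the other times, up to 4 called members of each list (else up to 2 with the smallest p), and the 6 largest called at all 6 times. Not every gene the rule takes is printed, and 1 of them is not reported here. Transcript length, GC content and chromosomes came from GENCODE M21 for 12333 genes (95.2%), 187 of the called ones among them. No set test was run. Python 3.11.15, SciPy 1.17.1, limma 3.58.1 and matplotlib 3.10.9 were used.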

Additional observations from a re-analysis of the deposited data

Results flagged for a closer look

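The difference of Nr1d1 between ZT20 and the mean of the other 5 times was -0.96 ± 0.19 (normal test on derived errors, adjusted p = 0.00425), which marks it as an effect that differs between time points. The adjusted p was 0.140 without ZT4, and near 1 against ZT16 alone (difference -0.31) and with limma. No value per library was at hand to look for single samples far from the others.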

How the results depend on the processing

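Of the genes called at ZT20, 127 remained at an adjusted p under 0.01. Another 5 settings gave 147 to 199 calls. Of the 35 named called genes, 5 were not called at the stricter threshold. With a mean log2 CPM of at least 1 required, 30 were left and stayed called. Cyp4f39, Kl, Mcm6, Otog and Ppp1r3b fell below that limit and could not be assessed there. Direction could change only under centring on the median and under removal of the length and GC trend, where all 35 kept it. The other settings left the fold changes as deposited. With 1 sign at all 6 times there were 121 called genes at an adjusted p under 0.01. For Nr1d1, leaving out each other time in turn gave differences of -1.12 to -0.85, and 0 genes passed without ZT4 and 1 gene otherwise. Without both ZT4 and ZT12 the difference was -0.84, and against ZT16 and ZT0 together -0.71, with 0 genes passing in each. It was -1.11 against ZT0 alone, -1.10 against ZT8, -0.86 against ZT12 and -0.31 against ZT16, with 0 genes passing, and 4 passed against ZT4 alone. These single-time tests, and the removal of the 13 predicted genes, were chosen after seeing the data. With limma the difference was -0.96 and 0 genes passed, with 243 genes at an unadjusted p under 0.05. The cause of these changes was not tested. The median squared z value of the test against the other times was 0.671 of its chi-square median, so the derived errors were wider than the scatter of most genes. No paired analysis was possible because values per library were not used, and leaving out single libraries was not run for the same reason.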
